A study of Mus musculus with 6 samples.

Results

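The enzymes described here digest peptides, sugars and phosphate esters at the brush border, the carpet of microvilli on the urinary face of the proximal tubule cell. The group was given as 10 genes: Mep1a, Mep1b, Dpp4, Anpep, Ggt1, Dpep1, Treh, Alpl, Napsa and Tmem27. Each was read from its brightest probe set, by mean level on the arrays, among those that carry a single symbol. That rule found 9 of the 10 among 19937 genes, each on 1 probe set. Tmem27 was listed under its newer symbol Cltrn, and no probe set in the annotation used carried the symbol Ggt1, which is not analysed here.

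Whole-kidney RNA of 6 mouse samples was hybridised to Affymetrix arrays, 1 array per sample. The 3 NICD samples came from mice of genotype Pax8rtTA TREICNotch1, in which the Notch1 intracellular domain, the active part of that receptor, can be induced in tubule epithelial cells. The 3 Control samples came from littermates labelled wild type, with a normal genotype. Pax8 is a gene of the nephron and collecting duct epithelium, so the transgene pair is directed to tubules as a whole and not to the proximal segment alone. The inducing agent, its duration, the age and the sex of the mice, and whether each sample is a separate animal, are not given in the sources used here. P-values therefore measure the spread between these samples, which may in part be technical.

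The brush border works as a digestive surface. Peptides that pass the glomerular filter are cut there by membrane-bound endopeptidases and exopeptidases, and the amino acids and dipeptides that result are taken up by carriers in the same membrane. Glutathione is taken apart in the same place, first by gamma-glutamyltransferase (Ggt1) and then by dipeptidases and aminopeptidases. The group also holds genes that are not brush border enzymes in the strict sense. Napsa encodes napsin A, an aspartic protease of lysosomes, and Tmem27 encodes collectrin, a membrane protein that has no peptidase domain and helps amino acid transporters reach the surface.

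All expression values below are log2 values after the authors' RMA normalization, and all differences are NICD minus Control. RMA compresses dim genes, so a fall that ends near the floor is understated. Median log2 expression over all genes lay between 5.38 and 5.41 on NICD arrays and between 5.26 and 5.29 on Control arrays. Pearson correlations across genes, which are not independent replicates, were 0.985 to 0.99 within NICD and 0.991 to 0.994 within Control, against 0.912 to 0.935 between the groups. Notch1, the gene of the transgene, averaged 10.19 ± 0.18 in NICD and 6.56 ± 0.11 in Control (SD, n = 3 each). Xist was low on every array, between 2.86 and 3.11 in NICD and between 2.72 and 2.89 in Control, and the Y-linked Eif2s3y stood between 7.0 and 7.93 in NICD and between 7.60 and 7.74 in Control. The tissue label was checked on 7 proximal tubule markers that are no members, among them the endocytic receptor Cubn and the phosphate transporter Slc34a1. Cubn stood between 7.43 and 8.12 in NICD, against 10.52 to 10.66 in Control, and Slc34a1 between 6.97 and 8.54 in NICD, against 12.22 to 12.35 in Control. All 7 markers lay above the median of every Control array, while Slc22a6 lay under it on 2 NICD arrays and Slc5a2 on 1.

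The members fell together. All 9 measured genes were lower in NICD kidneys (limma; adjusted p between 2.93e-07 and 0.000421), and none was higher. Of all genes, 32.7% were called, 14.9% as lower and 17.8% as higher. For all 9, every NICD array lay below every Control array, a pattern found in 19.7% of all genes. The median member difference was -3.24 log2, a 9.46-fold fall, beside a median of 0.01 over all genes tested. The falls reached at least 2-fold in 9 members, at least 4-fold in 7, at least 8-fold in 5 and at least 16-fold in 2. Falls of those first 3 sizes were called in 5.3%, 1.58% and 0.662% of all genes. In whole-kidney RNA, fewer cells of a type and less RNA per cell cannot be told apart.

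**Figure D1:**
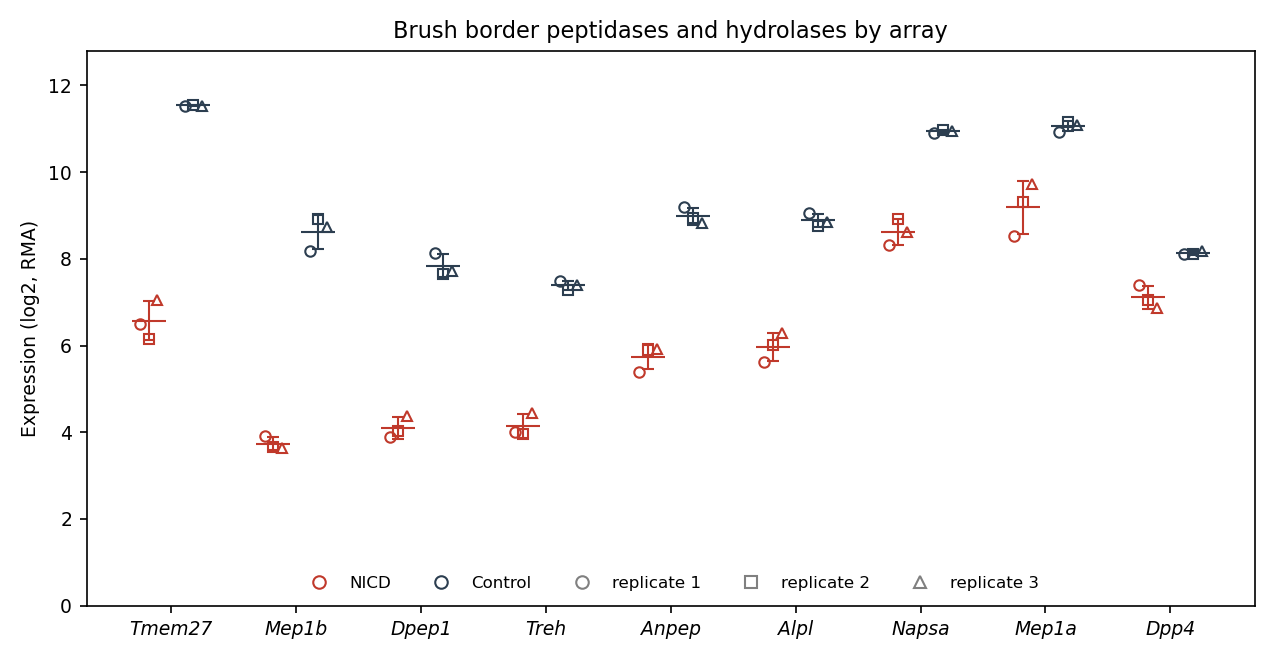
Log2 expression (vertical axis) of the 9 measured members on each array, NICD in red to the left of Control in dark blue, with a symbol for each replicate number and bars for the mean ± SD (n = 3 arrays per group). No member's groups overlap: the gap between the highest NICD and the lowest Control array runs from 0.71 for Dpp4 to 4.48 for Tmem27.

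To let the promoters be seen beside the levels, RefSeq windows of build GRCm38.p6, from 250 bases before to 50 bases after a transcript start, were searched on both strands for 2 motifs. These were the site CAAAGTCCA of HNF4 and GTGGGAA, bound by Rbpj, through which the Notch intracellular domain reaches DNA. Windows were on hand for 7 of the 9 measured members (9 windows in all). The HNF4 site occurred in 0.475% of all 32851 windows and the Rbpj site in 6.38%. The 2 windows that held a match are shown with the match in capitals, since these are the members whose start region carries any of the searched letters. Each window holds 1 match.
Treh, chr9:44672983-44673282, plus strand: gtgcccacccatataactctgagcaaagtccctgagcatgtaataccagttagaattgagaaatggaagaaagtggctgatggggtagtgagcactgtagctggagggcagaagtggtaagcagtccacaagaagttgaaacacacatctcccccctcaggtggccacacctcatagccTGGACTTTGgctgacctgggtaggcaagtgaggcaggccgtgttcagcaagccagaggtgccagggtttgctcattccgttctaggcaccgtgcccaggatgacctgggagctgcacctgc
Dpp4, chr2:62412182-62412481, minus strand: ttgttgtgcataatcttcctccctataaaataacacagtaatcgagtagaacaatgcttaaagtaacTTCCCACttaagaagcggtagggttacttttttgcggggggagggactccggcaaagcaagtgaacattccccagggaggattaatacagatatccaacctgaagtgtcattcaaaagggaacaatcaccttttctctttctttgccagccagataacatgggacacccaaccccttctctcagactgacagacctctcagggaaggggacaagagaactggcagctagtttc
The HNF4 site of Treh and the Rbpj site of Dpp4, both on the opposite strand, began at -71 and -183 from the start. The windows of Tmem27, Alpl, Mep1a, Anpep and Dpep1 held neither motif. These are matches of letters and not measured binding sites.

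The brush border endopeptidases among the members are the meprins, zinc metalloproteases of the astacin family built from alpha and beta subunits. Mep1b encodes the beta subunit, which stays anchored in the membrane. It read 3.91, 3.65 and 3.64 on the NICD arrays, against 8.17, 8.92 and 8.74 on the Control arrays. That is a 29.4-fold fall (-4.88 log2, SE 0.18, adjusted p = 2.93e-07), and all 3 NICD values lie under their array's median of all genes, near the floor where RMA understates a fold. Mep1a encodes the alpha subunit, which loses its membrane anchor during maturation and is held at the surface through the beta subunit. It read 8.52, 9.31 and 9.73 in NICD, against 10.92, 11.16 and 11.08 in Control. The fall was 3.65-fold (-1.87 log2, SE 0.26, adjusted p = 0.000421), with the widest NICD spread of any member (SD 0.61), and Mep1a stayed well above the median of every NICD array.

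The subunits of meprin thus changed unequally. The within-array log ratio of Mep1b to Mep1a was -5.45 ± 0.76 in NICD and -2.45 ± 0.27 in Control (SD, n = 3 each), an 8.04-fold shift against Mep1b (-3.01 log2, SE 0.47). The groups did not overlap, and the exact permutation test, two-sided, gave p = 0.1, the smallest that 3 against 3 allows. The ratio shows a larger fall of Mep1b than of Mep1a and says nothing of how much of each transcript was present relative to the other.

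The exopeptidases fell by amounts between 2.03-fold and 13.3-fold. Anpep, aminopeptidase N (CD13), removes the first residue of peptides and is also found on myeloid cells. It read 5.40, 5.89 and 5.93 in NICD, against 9.19, 8.94 and 8.82 in Control. This was a 9.46-fold fall (-3.24 log2, SE 0.16, adjusted p = 1.41e-06), and the NICD values lie close together just above the array median. Dpep1 is the GPI-anchored renal dipeptidase that splits cysteinyl-glycine, a dipeptide left from glutathione, and converts leukotriene D4. It read 3.89, 4.03 and 4.38 in NICD and 8.14, 7.65 and 7.72 in Control. It fell 13.3-fold (-3.74 log2, SE 0.17, adjusted p = 7.84e-07), to under the array median on all 3 NICD arrays.

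Dpp4, dipeptidyl peptidase 4 (CD26), cuts dipeptides off after proline or alanine and is also carried by T cells. It read 7.40, 7.06 and 6.87 in NICD, against 8.11, 8.12 and 8.18 in Control. The groups are apart, and the Control arrays are nearly identical, but the fall of 2.03-fold was the least among the members (-1.02 log2, SE 0.14, 95% interval -1.34 to -0.71, adjusted p = 0.000382). Tested against a minimum change of 2-fold, neither Dpp4 (adjusted p = 1) nor Mep1a (adjusted p = 0.0817) passed, and the other 7 members did.

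The hydrolases of sugars and phosphate fell too. Treh, trehalase, splits the disaccharide trehalose to glucose and is tied to the membrane by a GPI anchor. It read 4.0, 3.97 and 4.45 in NICD, against 7.48, 7.29 and 7.40 in Control, a 9.50-fold fall (-3.25 log2, SE 0.14, adjusted p = 6.99e-07) to under the median of all NICD arrays. Alpl, tissue-nonspecific alkaline phosphatase, is the GPI-anchored phosphatase long used as a histochemical stain of this membrane. It read 5.63, 6.01 and 6.28 in NICD and 9.06, 8.75 and 8.86 in Control, a 7.55-fold fall (-2.92 log2, SE 0.17, adjusted p = 2.68e-06). The gap between the highest NICD and the lowest Control array was 2.83 log2 for Treh and 2.47 for Alpl.

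Tmem27, collectrin, had a fall about as large as that of Mep1b, and the 95% intervals of these falls overlap. It read 6.49, 6.16 and 7.05 in NICD, against 11.52, 11.56 and 11.53 in Control, where its SD of 0.02 was the lowest of any member. The fall was 31.4-fold (-4.97 log2, SE 0.19, 95% interval -5.41 to -4.54, adjusted p = 3.56e-07), which left 3.18% of the Control level on the RMA scale. Slc6a19, the neutral amino acid transporter that collectrin carries to the surface, read 4.71, 5.09 and 4.70 in NICD and 9.45, 9.66 and 9.95 in Control (-4.85 log2, adjusted p = 1.52e-07). Napsa, napsin A, read 8.31, 8.93 and 8.61 in NICD, against 10.91, 10.98 and 10.94 in Control. Its fall was 5.01-fold (-2.33 log2, SE 0.15, adjusted p = 4.63e-06), and its NICD arrays still stood well above the array median.

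The NICD arrays were not equally low for every member. NICD replicate 1 held the lowest NICD value of 5 members (Dpep1, Anpep, Alpl, Napsa and Mep1a), and NICD replicate 3 the highest of 6. Dpp4 and Mep1b ran the other way, with the highest NICD value in replicate 1 and the lowest in replicate 3. Mep1b lay near the floor on all 3 NICD arrays (3.91, 3.65 and 3.64). The mean log2 level of the 7 proximal tubule markers was 7.05, 7.78 and 8.20 on NICD arrays 1 to 3, against 11.07, 11.15 and 11.13 on the Control arrays, so the markers too were lowest in replicate 1. All 7 markers were called lower, against 14.9% of all genes, with a median difference of -2.72.

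**Figure D2:**
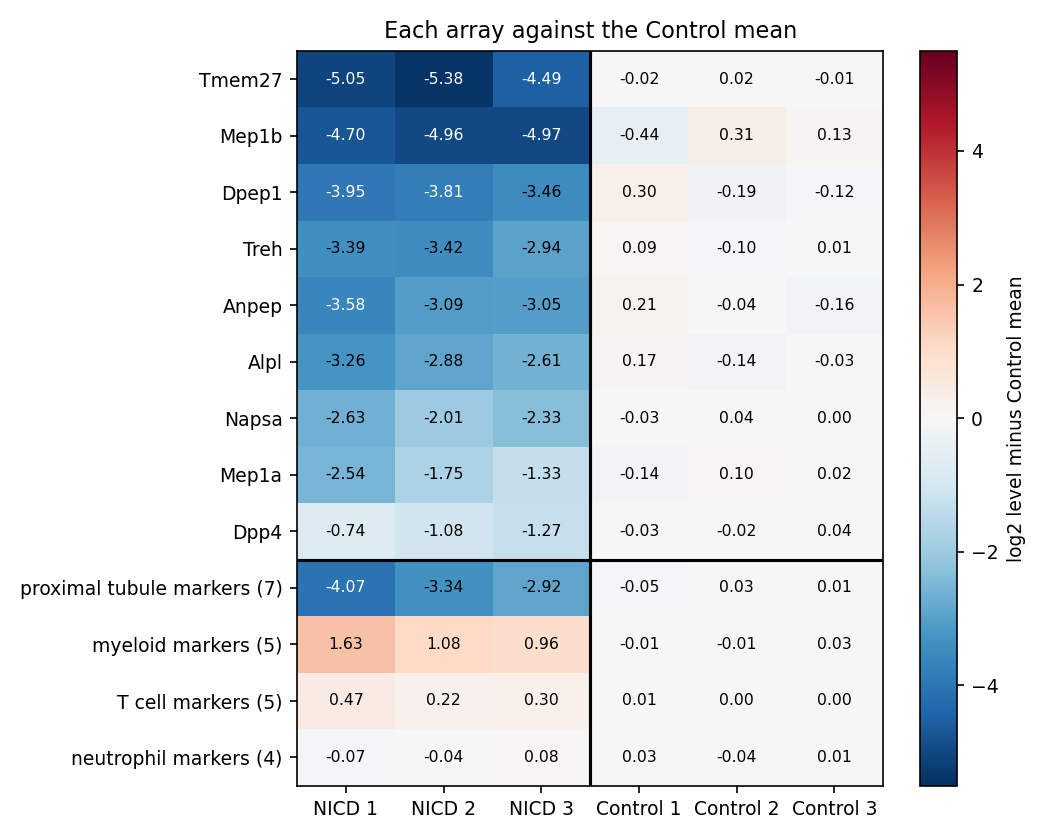
Log2 level of each member (upper 9 rows) and mean log2 level of marker lists (lower 4 rows, number of genes in brackets) on each array, as the difference from the Control mean, with NICD columns left of Control columns. Members and proximal tubule markers are blue on every NICD array, Dpp4 least so (-0.74, -1.08 and -1.27), while myeloid markers are red.

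Several members are also made by blood cells, so markers of those cells were read on the same arrays. Of 5 myeloid markers, 4 rose and Csf1r did not pass, and their mean level was 6.57, 6.02 and 5.90 in NICD and 4.93, 4.93 and 4.97 in Control. Itgam rose by 2.41 log2, Cd68 by 1.73, Ptprc by 1.07 and Adgre1 by 0.93. Adgre1 lay under the array median on every array, and Itgam, Cd68 and Ptprc on every Control array. Over all genes, 17.8% were called higher. Of 5 T cell markers, Cd8a (1.38 log2) and Cd3e (0.30) rose and 3 did not pass, and 4 of the 5 lay under the array median on every array. The call of Cd3e was lost under 11 of 15 alternatives, among them quantile normalization (0.19) and centring of the arrays (0.18). Their mean level was 4.51, 4.26 and 4.34 in NICD and 4.05, 4.04 and 4.04 in Control. The 4 neutrophil markers, Ly6g, Mpo, S100a9 and S100a8, lay under the median of every array, with mean levels of 3.52 to 3.67 in NICD and 3.55 to 3.62 in Control, and limma called 0 of them at adjusted p or at an unadjusted p under 0.05. Dpp4, the T cell antigen CD26, and the myeloid and T cell marker means were all highest in replicate 1 among the NICD arrays. The same held for Mep1b and for the collecting duct, podocyte and endothelial marker means, so it was not particular to leukocyte markers. The part of leukocytes in the level of Dpp4 or Anpep was not tested.

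Setting each member against the proximal tubule markers of the same array asked whether it fell more or less than their mean did. The marker mean itself fell by 3.44 log2. The markers differed widely among themselves, with single differences from -5.51 to -1.40 log2. Dpp4 (-1.02) was the only member whose difference lay outside that range. Of 9 members, 2 fell further than the marker mean with the groups apart, 4 fell less with the groups apart, and 3 overlapped. The share of all genes in each class was not computed. The median difference over all genes was 0.01, so a gene without any change would also count as falling less. The count of 4 is therefore not a trait of the members. Relative to the markers, Tmem27 differed by -1.53 log2 (SE 0.31) and Mep1b by -1.44 (SE 0.47), while Dpp4 differed by 2.42 (SE 0.49), Mep1a by 1.57 (SE 0.05), Napsa by 1.12 (SE 0.27) and Alpl by 0.52 (SE 0.19). Each of these 6 had an exact permutation p of 0.1, two-sided, which is the smallest possible with 3 against 3 and does not pass 0.05, also before any adjustment over the 9 members. Dpep1 (-0.30, exact p = 0.3), Anpep (0.20, exact p = 0.5) and Treh (0.19, exact p = 0.7) lay within the spread of the arrays.

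The NICD arrays differed little from each other in Mep1a relative to the markers. Its log2 level minus the marker mean was 1.47, 1.53 and 1.54 on the NICD arrays, against -0.15, 0.01 and -0.04 on the Control arrays. The same value for Dpp4 was 0.36, -0.72 and -1.33 in NICD, against -2.96, -3.03 and -2.95 in Control. The NICD spread was therefore an SD of 0.03 for Mep1a and of 0.85 for Dpp4. With the median of the markers in place of their mean, the differences of Dpp4, Mep1a and Napsa were 1.82, 0.98 and 0.52 and those of Tmem27 and Mep1b -2.13 and -2.03, while those of Alpl, Anpep and Treh turned negative (-0.07, -0.40 and -0.40).

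**Figure D3:**
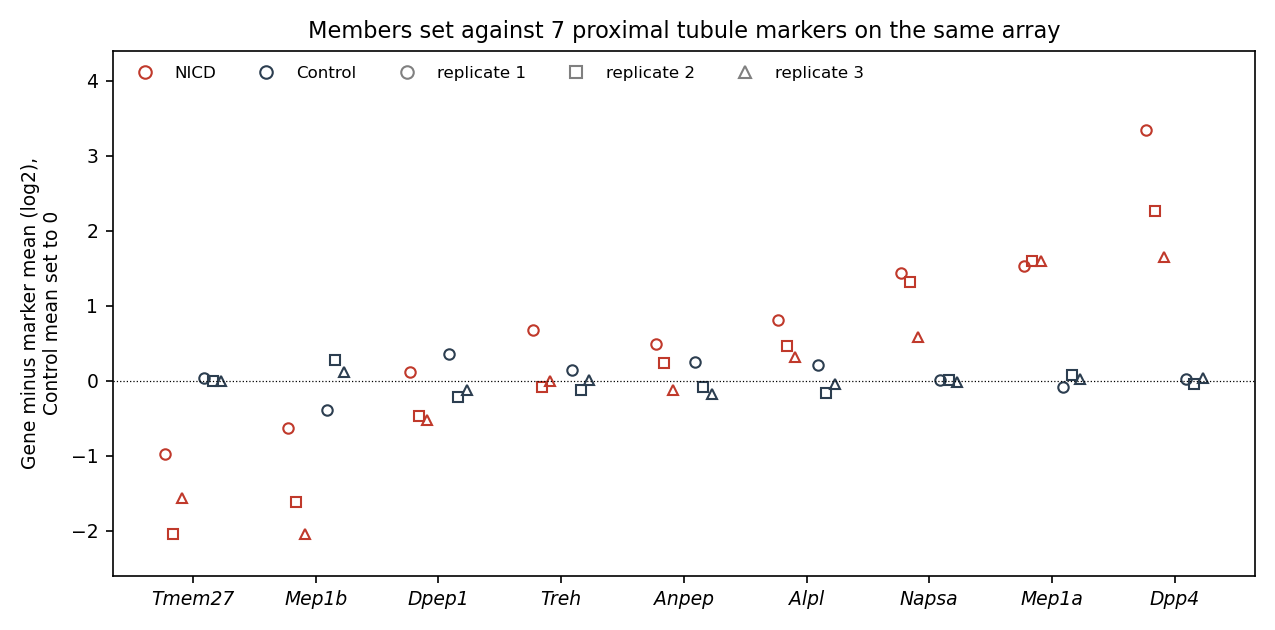
Log2 level of each member minus the mean log2 level of 7 proximal tubule markers on the same array, with each gene's Control mean set to 0 (dotted line). NICD arrays are red, to the left of Control arrays in dark blue. Tmem27 and Mep1b lie below the line in NICD and Dpp4, Mep1a, Napsa and Alpl above it, and the groups overlap for Dpep1, Treh and Anpep.

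Other surface peptidases and hydrolases of the proximal tubule did not follow the members gene for gene. Of 8 such genes listed, 7 were measured, 3 fell, and 4 did not pass, with a median difference of -0.50. The share called was 42.9%, beside 32.7% of all genes called and 14.9% called lower. Ace, the angiotensin-converting enzyme, which endothelium makes as well, read 5.98, 6.36 and 6.08 in NICD and 8.61, 8.66 and 8.38 in Control, a 5.31-fold fall (adjusted p = 2.11e-06). The ecto-5'-nucleotidase Nt5e fell 1.54-fold (adjusted p = 0.0202) and the pantetheinase Vnn1 1.49-fold (adjusted p = 0.0271). Both calls depended on single arrays: Nt5e did not pass without NICD replicate 1 (-0.48), Control replicate 1 (-0.61) or Control replicate 2 (-0.49), nor Vnn1 without NICD replicate 1 (-0.40), Control replicate 2 (-0.46) or Control replicate 3 (-0.59). Vnn1 also did not pass after quantile normalization (-0.40).

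Neprilysin and glutamyl aminopeptidase, large zinc ectopeptidases of the same membrane, gave no call. Mme, neprilysin, read 8.30, 8.20 and 8.99 in NICD, against 8.80, 8.49 and 8.18 in Control, with overlapping groups (0.01 log2, SE 0.22, adjusted p = 0.989). Its 95% interval, -0.50 to 0.51, does not reach the fall of any member. Enpep, glutamyl aminopeptidase, read 9.64, 9.05 and 9.60 in NICD, against 8.80, 9.08 and 9.13 in Control (0.43 log2, adjusted p = 0.0833), and it was called higher after quantile normalization (0.77, adjusted p = 0.007) and without NICD replicate 2 (0.62, adjusted p = 0.00937). Folh1, which trims glutamate from peptides and folates, differed by -0.50 (adjusted p = 0.0935) with its groups apart, and Xpnpep2, a membrane aminopeptidase P, by -0.21 (adjusted p = 0.243). Folh1 was called lower after centring of the arrays (-0.63) and without NICD replicate 2 (-0.69).

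**Figure D4:**
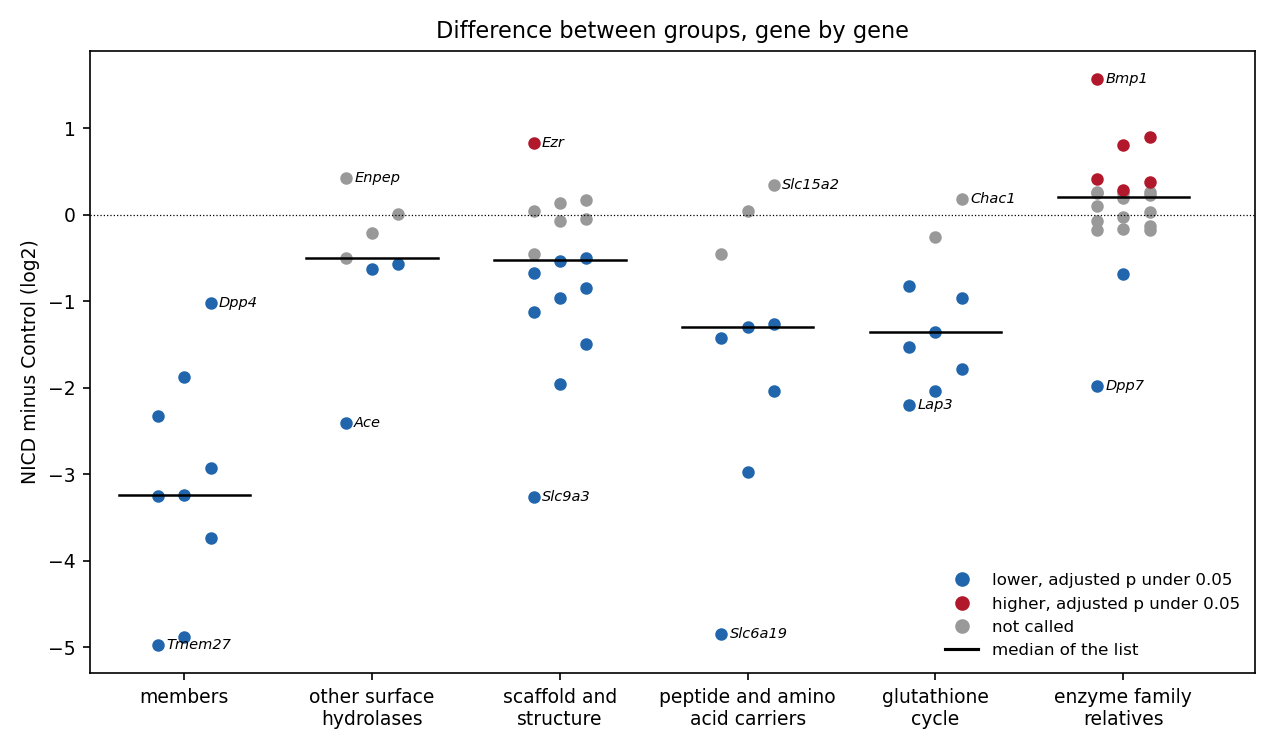
NICD minus Control difference (log2, vertical axis) of each measured gene in the member group and in 5 related lists, coloured by the limma call, with a black line at each list's median and the extreme genes named. All 9 members are lower, with a median of -3.24, while the other surface hydrolases spread from -2.41 for Ace to 0.43 for Enpep and the enzyme family relatives from -1.98 for Dpp7 to 1.57 for Bmp1.

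Of 22 measured relatives of the members in the same enzyme families, 2 fell, 6 rose and 14 did not pass, with a median of 0.21. The 36.4% called is near the 32.7% called over all genes. Dpp7, a lysosomal dipeptidyl peptidase, fell 3.95-fold, reading 5.62, 5.57 and 5.85 in NICD and 7.58, 7.51 and 7.89 in Control. Bmp1, an astacin protease like the meprins that processes procollagen, rose 2.96-fold, with 7.26, 7.33 and 7.04 in NICD and 5.64, 5.63 and 5.66 in Control. Dpep2, a relative of Dpep1, rose 1.87-fold (0.90 log2). It was dim, with 4.98, 4.87 and 4.67 in NICD and 4.04, 4.06 and 3.72 in Control, under the array median on every array. Erap1, an aminopeptidase of the endoplasmic reticulum that trims peptides for MHC class I and belongs to the family of Anpep, rose 1.76-fold (0.81 log2).

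Among 16 structural and scaffold genes of the brush border, 9 fell, 1 rose and 6 did not pass, with a median of -0.52. The share called lower was 56.2%, against 14.9% of all genes. Slc9a3, the sodium-proton exchanger of this membrane, averaged 6.03 ± 0.45 in NICD and 9.29 ± 0.14 in Control (SD, n = 3 each), a 9.57-fold fall. Pdzk1, which ties transporters to the microvillus, fell 3.90-fold, and Ush1c, a scaffold of the links between microvilli, 2.17-fold. Ezr, which joins membrane proteins to actin and is made in many epithelia, was the gene that rose, with 10.28, 10.03 and 9.97 in NICD and 9.37, 9.25 and 9.18 in Control (1.77-fold).

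The carriers that take up the released products and the genes of the glutathione cycle were mostly lower. Of 9 carriers for the released dipeptides and amino acids, 6 fell and 3 did not pass, with a median of -1.30. The share called lower was 66.7%, against 14.9% of all genes. Beside Slc6a19, Slc6a20b fell by 2.97 log2, and the cystine transporter subunits Slc7a9 and Slc3a1 by 2.03 and 1.26. Of 9 genes of the glutathione cycle, 7 fell and 2 did not pass, with a median of -1.35. Here 77.8% were called lower. Lap3, a cytosolic leucine aminopeptidase, fell by 2.20 log2, the cytosolic dipeptidase Cndp2 by 2.04, Ggct, which releases 5-oxoproline, by 1.53, and Gclm, a subunit of the enzyme that starts glutathione synthesis, by 1.35.

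Hnf4a and Hnf4g, transcription factors of the hepatocyte nuclear factor group that proximal tubule cells use, were both lower. Hnf4a read 8.03, 9.13 and 8.96 in NICD, against 10.04 ± 0.04 in Control (SD, n = 3; -1.33 log2, adjusted p = 0.00235), and was lowest in NICD replicate 1, as were 5 members. Hnf4g read 4.85, 4.83 and 5.35 in NICD, against 5.79, 6.47 and 6.63 in Control (-1.29 log2, adjusted p = 0.00176).

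The genes whose pattern over the 6 arrays was most like the mean of the members were Slc2a12, Arsb, Mecr, Slc34a3 and Acot6, with Pearson r of 0.9998, 0.9995, 0.9994, 0.9994 and 0.9993. These values describe 6 arrays that fall into separate groups, and 344 of 19928 genes reached an r of 0.99. Slc34a3, a phosphate transporter of the brush border, read 4.80, 4.84 and 5.11 in NICD and 7.5, 7.5 and 7.59 in Control. Slc2a12, a glucose transporter, read 5.31, 5.38 and 5.47 in NICD and 6.51, 6.53 and 6.49 in Control, and Arsb, a lysosomal sulfatase, 6.64, 6.70 and 6.85 in NICD and 8.78, 8.85 and 8.76 in Control.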

How the data were processed

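The authors deposited log2 expression levels per probe set in 1 column per array. RNA, per the labels' protocols, was extracted with TRIzol, biotin-labelled with the one-cycle Affymetrix kit, and the scans were normalized in GeneSpring with RMA16. The GeneSpring version, detection calls and scan dates are not given in the sources used here, so scan batch could not be compared with group, and precision is limited by the 3 arrays per group. Of 34760 probe sets, 6573 numbered below the lowest annotated one were left out. Those with 1 symbol in the platform annotation (21640) gave 19937 genes, each read from its brightest probe set. NICD and Control were compared with limma 3.58.1 (R 4.3.3), two-sided, with p-values adjusted over all genes by Benjamini-Hochberg, a threshold of 0.05 and no filter on low values. The fit was tested on simulated data. Ratios to the mean of 7 proximal tubule markers were compared with an exact permutation test.

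The members, the gene lists and the motifs were chosen with earlier results of these data known. Text names all members, all measured surface hydrolases, Hnf4a and Hnf4g, up to 4 genes of lowest p per other list, the 5 genes most like the member mean, and Notch1. Xist, Eif2s3y and Csf1r were named after their values were seen. A planned search for catalytic motifs in the members' proteins was not run, and a planned promoter motif is not reported here. Same-numbered NICD and Control arrays did not deviate together (correlations of -0.069, -0.012 and -0.07), so replicate numbers were not taken as pairs.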

Additional observations from a re-analysis of the deposited data

How the results depend on the processing

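All 9 members were lower, and 0 were higher, under every alternative run except a minimum change of 2-fold, which left 7 lower and 881 genes changed in place of 6529. Over 15 alternatives per member, 133 of 135 differences kept their direction and their side of the threshold, and the other 2 were Mep1a and Dpp4 under that minimum. Leaving out each array in turn gave 5275 to 6278 changed genes, with 9 members lower each time. The replicate block gave 5981 changed genes and 9 members lower. It ended the call of Cd3e (0.30, adjusted p = 0.0926) and no other call among named genes. Centring the arrays moved the median difference of all genes by -0.12, to -0.11. Among the 61 other named genes, 842 of 907 values kept direction and side, 42 lost a call, 4 gained it and 19 changed sign. Those that changed sign were not called: after quantile normalization S100a9 (-0.01), after centring Mme (-0.12), Mpo (-0.01), S100a9 (-0.09) and Cd4 (-0.07), and with array weights Mme (-0.07), Cdh5 (0.04) and Pdgfra (0.08). Leaving out arrays moved Mme between -0.24 and 0.16, Cdh5 between -0.25 and 0.29, Pdgfra between -0.23 and 0.15, Mpo between -0.07 and 0.22, Cd4 between -0.03 and 0.15, S100a9 between -0.03 and 0.09 and S100a8 between -0.03 and 0.01. Relative to the proximal tubule markers, 76 of 81 values kept their sign. Treh turned after quantile normalization (-0.07) and lay between -0.05 and 0.33 when arrays were left out, and with the markers' median Treh (-0.40), Anpep (-0.40) and Alpl (-0.07) turned. The cause was not tested. Signal near the RMA floor limits the folds of Mep1b, Dpep1 and Treh.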

Other observations

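Markers of other kidney cells were read on the same arrays as a measure of what else differed between the samples. Over all genes, 14.9% were called lower and 17.8% higher. Of 5 markers of the thick limb and distal tubule, 4 fell (Pvalb by 3.41 log2, Calb1 by 4.15, Slc12a1 by 2.71 and Slc12a3 by 2.38). The other 1, Umod, rose by 0.32 log2, close to the threshold (limma adjusted p = 0.0403). Of 5 collecting duct markers, Slc26a4 fell by 3.38 log2, Atp6v1g3 by 2.38, Aqp3 by 2.52 and Aqp2 by 1.05, while Scnn1g rose by 1.23. Of 3 measured podocyte markers, Podxl and Nphs1 fell by 1.74 and 0.93 log2 and Synpo rose by 1.09. Of 4 endothelial markers, Tek and Kdr fell by 1.76 and 1.54 log2, and Pecam1 (-0.67) and Cdh5 (-0.04) did not pass. Of 4 fibroblast and pericyte markers, Col1a1, Col1a2 and Pdgfrb rose by 2.96, 2.20 and 0.70 log2, and Pdgfra (-0.07) did not pass. Umod and Aqp2 were named after their values were seen.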
